A study of Mus musculus with 16 samples.

Results

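The genes described here are 9 genes of the TGF-beta pathway. They comprise the ligands Tgfb1, Tgfb2 and Tgfb3, the receptors Tgfbr1, Tgfbr2 and Tgfbr3, the activin subunit Inhba, and the target genes Tgfbi and Ccn2. They were picked by symbol from a list of 10 names in which Ctgf is the older symbol of Ccn2, and no measured value enters that rule, but the list was drawn up with earlier results of these data known. All 9 were found among the 49315 gene identifiers of the count table, and all 9 passed the filter on low counts. The cells were MTECs, primary epithelial cells from mouse trachea cultured on porous inserts at an air-liquid interface. They came from female and male C57BL/6J mice that were wild type (WT) or knockout (KO) for LMAN1, a cargo receptor of the secretory pathway that also binds house dust mite. MTECs were left naive or treated overnight with 20 µg/ml extract of house dust mite (HDM), an allergen used to model asthma. The 8 groups were thus female WT naive, female WT HDM, female KO naive, female KO HDM and the same 4 in males, with 2 biological replicates each and 16 libraries in all. Ages were not given in the labels.

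TGF-beta ligands are secreted as dimers that stay inactive because their own propeptide, the latency-associated peptide, folds around them. Latent TGF-beta-binding proteins tether this complex to the matrix, and integrins that contain the alpha-v chain or thrombospondin-1 can release the ligand. Free ligand binds the type II receptor TGFBR2, which recruits and phosphorylates the type I receptor TGFBR1, and TGFBR1 then phosphorylates SMAD2 and SMAD3. TGFBR3, also called betaglycan, is a co-receptor that presents TGF-beta2 in particular. Activin A, a dimer of the INHBA chain, uses other receptors but the same SMADs. In airway epithelium the pathway is known for slowing growth, for wound repair and for the matrix deposition of airway remodelling in asthma.

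Several features of the libraries bear on the results. Totals lay between 21860698 and 43442188 counts, and the 4 female HDM libraries were among the shallowest, although each member had at least 24 counts in every library. Tracheas were pooled to seed the cultures and the inserts were coated with basement membrane made by a mouse fibroblast line. The p-values thus rest on the spread between the 2 cultures of pooled cells within a group, estimated jointly over the 8 groups. Transcript of Lman1, the targeted gene, reached 121 ± 14.3 CPM (SD, n = 8) in the WT libraries, where CPM are counts relative to the library total after TMM scaling. In libraries labelled KO it lay at 12.8 and 12.8 in naive females, 14.2 and 63.4 in naive males, 66.6 and 78.1 in HDM females and 65 and 66 in HDM males. Hence 5 of the 8 libraries labelled KO, all 4 HDM libraries among them, held over 20% of the WT mean, and every genotype difference under HDM rests on such libraries. So do the HDM response of female KO MTECs, whose naive libraries held far less Lman1 than the HDM ones, the HDM response of male KO MTECs and the sex difference in KO HDM MTECs. Without these 5 libraries none of these comparisons could be made. Xist and Y-linked transcripts matched the labelled sex in all 8 male and 8 female libraries.

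The epithelial label fitted the markers, with Epcam, Cdh1, Krt8, Krt18 and Nkx2-1 together at 3060 to 7574 CPM. Endothelial markers summed to at most 2.33 CPM. Immune markers summed to 41.7 to 95.7 CPM, with Cd3e and Cd79a of lymphocytes at 4 counts or fewer in every library. The macrophage genes of that list were present throughout, with at least 178 counts of Cd68, 294 of Csf1r and 310 of Adgre1. Markers of fibroblasts were uneven. Their sum over 8 genes was 547 and 598 CPM in replicate 2 of female WT naive and HDM MTECs, against 27.4 and 49.4 in replicate 1, and 2.99 to 158 in the other libraries. The female WT results are therefore also given without both replicate 2 libraries, a check added after the data were seen that leaves 1 culture per group and assumes it to vary like the other groups.

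**Figure D1:**
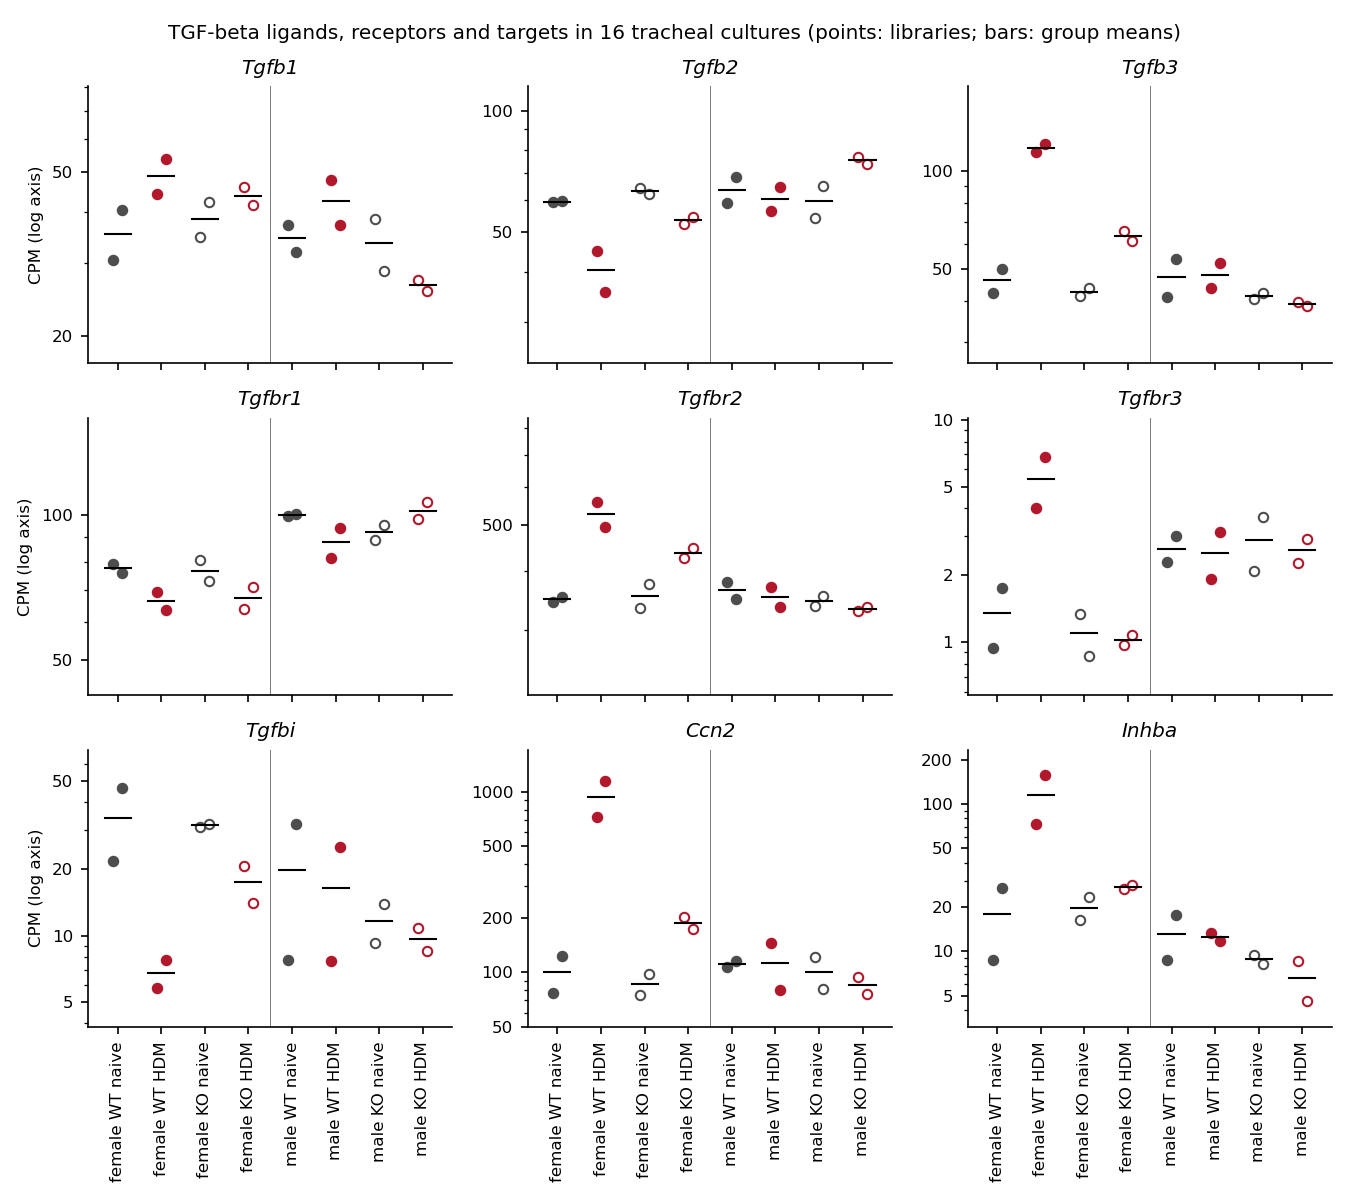
Each panel shows 1 gene, with TMM-scaled CPM on a log axis and the 8 groups in columns. Points are libraries (dark for naive, red for HDM, filled for WT, open for KO) and bars are group means. The 2 female WT HDM libraries stand apart from the others for Tgfb3, Tgfbr3, Ccn2 and Inhba (high), while Tgfb2 and Tgfbi are low there.

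Compared per length of exon, Ccn2 was the most abundant member with a mean of 75.3 CPM per kb over the 16 libraries. Tgfbr2 followed at 46.8, Tgfb3 at 16.5, Tgfbr1 at 12.8, Tgfb2 at 10.3 and Tgfb1 at 7.53 CPM per kb. Tgfbi and Inhba lay at 4.88 and 4.32, and Tgfbr3 at 0.373 CPM per kb was the rarest. The spread over libraries went the other way in part. The highest library exceeded the lowest 33.9-fold for Inhba and 15.3-fold for Ccn2, but 1.70-fold for Tgfbr2 and 1.68-fold for Tgfbr1.

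The first question was how each sex and genotype answered HDM. In female WT MTECs 7 of the 9 members passed the threshold, an adjusted p under 0.05 (quasi-likelihood F test of edgeR, Benjamini-Hochberg method over 15993 genes). Tgfb3, Tgfbr2, Tgfbr3, Ccn2 and Inhba rose, and Tgfb2 and Tgfbi fell. Of all genes tested, 43.1% were called in this comparison, 20.6% higher and 22.4% lower. The median log2 fold change was 0.59 over the members and -0.02 over all genes. In bulk RNA, fewer cells of a type and less RNA per cell cannot be told apart. Without both female WT replicate 2 libraries 5 members were called (22.1% of all genes), and the calls of Tgfb2 (log2 fold change -0.40, edgeR adjusted p = 0.0901) and Tgfbi (-1.91, 0.18) were lost.

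Among the ligands, Tgfb3 (ENSMUSG00000021253, chromosome 12 of GRCm38, 86056745 to 86079041, minus strand) gave the most even response. It encodes the isoform best known from palate and lung development. Tgfb3 stood at 42.4 and 50.3 CPM in female WT naive MTECs and at 114 and 121 in female WT HDM MTECs, and no library of another group exceeded 65.6. The 2.53-fold rise had a log2 fold change of 1.34 (SE 0.12, edgeR adjusted p = 1.09e-05). The female KO libraries went from 41.6 and 44.0 to 65.6 and 60.9 CPM, a log2 fold change of 0.56 (SE 0.12, edgeR adjusted p = 0.0155). All 8 male libraries lay between 38.8 and 53.8 CPM, naive and HDM overlapping in WT. Tgfb3 overlaps Ttll5 on the opposite strand, and since the strand setting of the counting is not stated, reads of these genes may not be told apart. Ttll5 itself went from 24.4 and 27.4 to 38.7 and 42.3 CPM in female WT MTECs, and its part in the Tgfb3 result was not tested.

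Tgfb2 (ENSMUSG00000039239, chromosome 1, 186622792 to 186705989, minus strand), the isoform that depends most on betaglycan for receptor binding, moved the other way. It stood at 59.4 and 59.7 CPM in female WT naive MTECs and at 45.0 and 35.6 after HDM, the lowest values of the 16 libraries. The log2 fold change was -0.56 (SE 0.12, edgeR adjusted p = 0.00292). Its levels in female KO MTECs were 64.5 and 62.2 CPM before and 52.6 and 54.6 after HDM (log2 fold change -0.24, SE 0.12, edgeR adjusted p = 0.228). The highest Tgfb2 levels, 76.7 and 73.9 CPM, were in male KO HDM MTECs, above the 54.4 and 65.3 of male KO naive MTECs (log2 fold change 0.33, SE 0.12, edgeR adjusted p = 0.781).

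Tgfb1 (ENSMUSG00000002603, chromosome 7, 25687002 to 25705077, plus strand) is the isoform most often tied to fibrosis and immune regulation. Its female WT libraries read 30.5 and 40.4 CPM naive and 44.2 and 53.8 with HDM, which do not overlap, but the log2 fold change of 0.46 (SE 0.18) missed the threshold (edgeR adjusted p = 0.0595). DESeq2 put it past the threshold (log2 fold change 0.48, adjusted p = 0.0408). The male WT libraries read 37.1 and 32.0 CPM naive and 47.8 and 37.2 with HDM, and the male KO libraries 38.4 and 28.8 naive and 27.3 and 25.8 with HDM. Neither male difference passed the test (log2 fold changes 0.30 and -0.34, SE 0.18 and 0.18, edgeR adjusted p = 0.936 and 0.781).

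Because the ligands moved in opposite directions, their balance shifted. Per length of exon, Tgfb3 held 43.5% and 44.8% of the transcript of the 3 ligands in female WT naive MTECs and 67.1% and 68.0% after HDM. Tgfb2 went from 35.6% and 31.1% to 15.5% and 11.7%, and Tgfb1 from 21% and 24.1% to 17.4% and 20.3%. In female KO HDM MTECs Tgfb3 held 51.6% and 50.4%. In the 12 libraries outside the female HDM groups its share ran from 38.6% to 46.7%, so the 4 female HDM libraries were the highest of the 16. These shares describe the same changes as the tests above and were not tested on their own. The summed level of the 3 ligands was 28.9 and 33.2 CPM per kb in female WT naive MTECs, 50.3 and 52.6 in female WT HDM MTECs, and 29.0 to 37.6 in all other libraries.

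**Figure D2:**
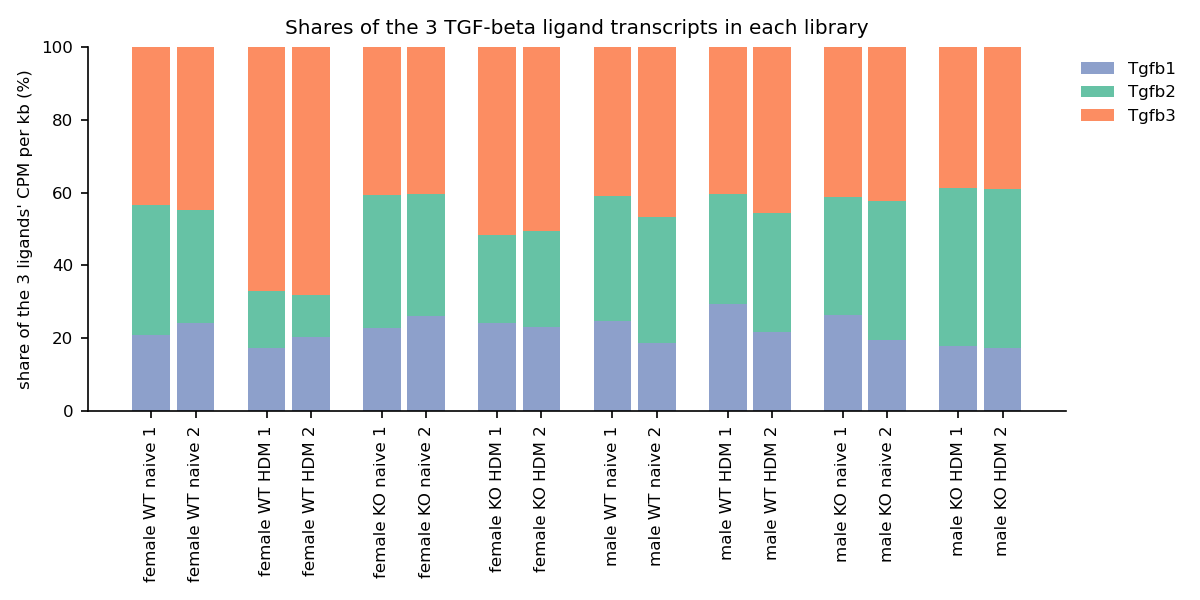
Stacked bars give, for each of the 16 libraries, the percentage of the summed CPM per kb of Tgfb1, Tgfb2 and Tgfb3 held by each ligand. Tgfb3 takes 67.1% and 68.0% in the female WT HDM libraries and 38.6% to 51.6% in the others.

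The ligands differ in their coding sequence at a site that matters for activation. The latency peptides of TGF-beta1 and TGF-beta3 carry an arginine-glycine-aspartate motif that alpha-v integrins bind. A search of the coding sequences of GENCODE release M21 found in-frame codons for this motif 1 time in Tgfb1, 1 time in Tgfb3 and 0 times in the 1326 coding bases of Tgfb2. The lines give the 9 codon bases in capitals with 9 coding bases on each side, 5′ to 3′ on the coding strand, all within exon 5. They are shown because Tgfb3 is the ligand that rose. The Tgfb1 site lies at chr7:25697133-25697159 on the plus strand and the Tgfb3 site at chr12:86062156-86062182 on the minus strand of GRCm38.
Tgfb1: cccaaacgtCGGGGCGACctgggcacc
Tgfb3: gaccatggcCGTGGAGACctggggcgt

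Inhba (ENSMUSG00000041324, chromosome 13, 16011851 to 16031621, plus strand), the chain that dimerises into activin A, had the widest range of the members. Its female WT libraries read 8.72 and 27.0 CPM naive and 73.0 and 156 with HDM, above every library of another group. The 6.34-fold rise (log2 fold change 2.67, SE 0.52, edgeR adjusted p = 0.00159) came with replicates that differed from each other both before and after HDM. Without single libraries the log2 fold change ran from 2.02 (without female WT HDM replicate 2) to 3.71 (without female WT naive replicate 2), and the call held. Inhba in female KO MTECs went from 16.3 and 23.3 to 26.5 and 28.1 CPM, which missed the threshold (log2 fold change 0.46, SE 0.50, edgeR adjusted p = 0.611). The 8 male libraries held 4.61 to 17.6 CPM. Among the groups, male KO HDM (mean 6.64 CPM) and male KO naive (8.83) were lowest and overlapped each other.

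The bases upstream of the start of Inhba, which rose, and of Tgfb2, which fell, are shown as an example of the promoters of members that moved apart. RefSeq promoters (GRCm38.p6) were at hand for 6 of the members, with 7 starts in all. Of these, 2 starts hold the TATA box letters TATAAA in the 250 bases before the start, as do 12.4% of 32851 promoters, and 2 hold the SMAD-type letters CAGACA, as do 17.1%. Neither the AP-1 letters TGANTCA (6.75% of promoters) nor the TEAD letters GGAATG (12.6%) occur in these 7 windows on either strand, which says nothing of binding elsewhere. Capitals mark TATAAA in both and CAGACA in Tgfb2, all on the strand of the gene. The windows are chr13:16011601-16011850 on the plus strand for Inhba and chr1:186705990-186706239 on the minus strand for Tgfb2, each printed 5′ to 3′ towards the start. The TATAAA letters begin 91 bases before the start of Inhba and 31 bases before that of Tgfb2.
Inhba: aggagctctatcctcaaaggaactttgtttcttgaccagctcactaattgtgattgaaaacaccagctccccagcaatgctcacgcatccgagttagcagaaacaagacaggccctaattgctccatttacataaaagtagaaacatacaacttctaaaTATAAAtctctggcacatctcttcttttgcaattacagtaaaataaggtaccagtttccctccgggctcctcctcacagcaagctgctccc
Tgfb2: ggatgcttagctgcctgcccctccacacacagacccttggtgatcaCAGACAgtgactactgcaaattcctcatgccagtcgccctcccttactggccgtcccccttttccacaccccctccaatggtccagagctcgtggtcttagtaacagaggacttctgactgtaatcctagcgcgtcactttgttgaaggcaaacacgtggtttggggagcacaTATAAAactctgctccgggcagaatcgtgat

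Of the receptors, Tgfbr2 (ENSMUSG00000032440, chromosome 9, 116084293 to 116175360, minus strand), the ligand-binding type II kinase, rose in female WT MTECs from 345 and 353 to 559 and 494 CPM. This 1.51-fold change had a log2 fold change of 0.59 (SE 0.09, edgeR adjusted p = 2.81e-04). The female KO libraries went from 334 and 375 to 426 and 448 CPM, which do not overlap, with a log2 fold change of 0.30 (SE 0.09) just outside the threshold (edgeR adjusted p = 0.0509). Male libraries stayed between 329 and 380 CPM. The order of group means was female WT HDM, then female KO HDM, and below these 6 groups between 333 and 364 CPM, of which the upper 5 overlapped their neighbours.

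Tgfbr1 (ENSMUSG00000007613, chromosome 4, 47353222 to 47414931, plus strand), the type I kinase that signals to SMADs, did not pass the test in any HDM response. It read 79.1 and 76.0 CPM in female WT naive and 69.2 and 63.4 in female WT HDM MTECs (log2 fold change -0.23, SE 0.09, edgeR adjusted p = 0.0574). Its levels separated by sex. All 8 male libraries (81.6 to 106 CPM) lay above all 8 female libraries (63.4 to 80.6 CPM). The sex difference, male over female, had a log2 fold change of 0.41 in WT HDM and 0.60 in KO HDM MTECs (SE 0.09 and 0.09, edgeR adjusted p = 0.00332 and 6.76e-04), and of 0.37 and 0.26 in WT and KO naive MTECs (edgeR adjusted p = 0.177 and 0.316).

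Tgfbr3 (ENSMUSG00000029287, chromosome 5, 107106570 to 107289629, minus strand), the co-receptor betaglycan, was close to the filter, with 24 to 144 counts a library. In female WT MTECs it rose from 0.945 and 1.75 to 4.04 and 6.82 CPM, a log2 fold change of 1.98 (SE 0.41, edgeR adjusted p = 0.00231). No such rise was seen in female KO MTECs, at 1.34 and 0.867 CPM naive and 0.968 and 1.07 with HDM, and the log2 fold change was -0.11 (SE 0.44, edgeR adjusted p = 0.903). The 8 male libraries held 1.92 to 3.66 CPM, above the female naive and KO HDM libraries and below both female WT HDM libraries.

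Of the target genes, Ccn2 (ENSMUSG00000019997, chromosome 10, 24595442 to 24598683, plus strand) gave the largest change of the members. It encodes a matricellular protein, known as connective tissue growth factor, that both SMAD and YAP signalling induce. Ccn2 went from 77.2 and 123 CPM to 730 and 1147 CPM in female WT MTECs. This 9.37-fold rise had a log2 fold change of 3.23 (SE 0.34, edgeR adjusted p = 2.74e-05), and both libraries stood above the other 14, whose highest was 204 CPM. A smaller change was seen in female KO MTECs, from 74.8 and 97.6 to 204 and 174 CPM, a 2.19-fold rise (log2 fold change 1.13, SE 0.32, edgeR adjusted p = 0.0451). The male WT libraries read 107 and 115 CPM naive and 145 and 79.5 with HDM (log2 fold change 0.01, SE 0.32, edgeR adjusted p = 0.997), with the HDM replicates on either side of the naive ones.

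Tgfbi (ENSMUSG00000035493, chromosome 13, 56609523 to 56639562, plus strand), a matrix protein named for its induction by TGF-beta, fell where Ccn2 rose. It went from 21.7 and 46.3 to 5.78 and 7.72 CPM in female WT MTECs, a 5.06-fold fall (log2 fold change -2.34, SE 0.66, edgeR adjusted p = 0.0137). Its female KO libraries read 31.1 and 32.0 CPM naive and 20.7 and 14.1 with HDM, which do not overlap but did not pass the test (log2 fold change -0.86, SE 0.61, edgeR adjusted p = 0.418). Male WT MTECs differed by replicate number more than by treatment, at 7.76 and 31.9 CPM naive and 7.69 and 25.1 with HDM. The call in female WT MTECs was lost when 1 library was left out in 3 of 4 cases, namely female WT naive replicate 2 (-1.69, edgeR adjusted p = 0.0975) and female WT HDM replicate 1 (-2.15, 0.0798) or 2 (-2.56, 0.0582).

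**Figure D3:**
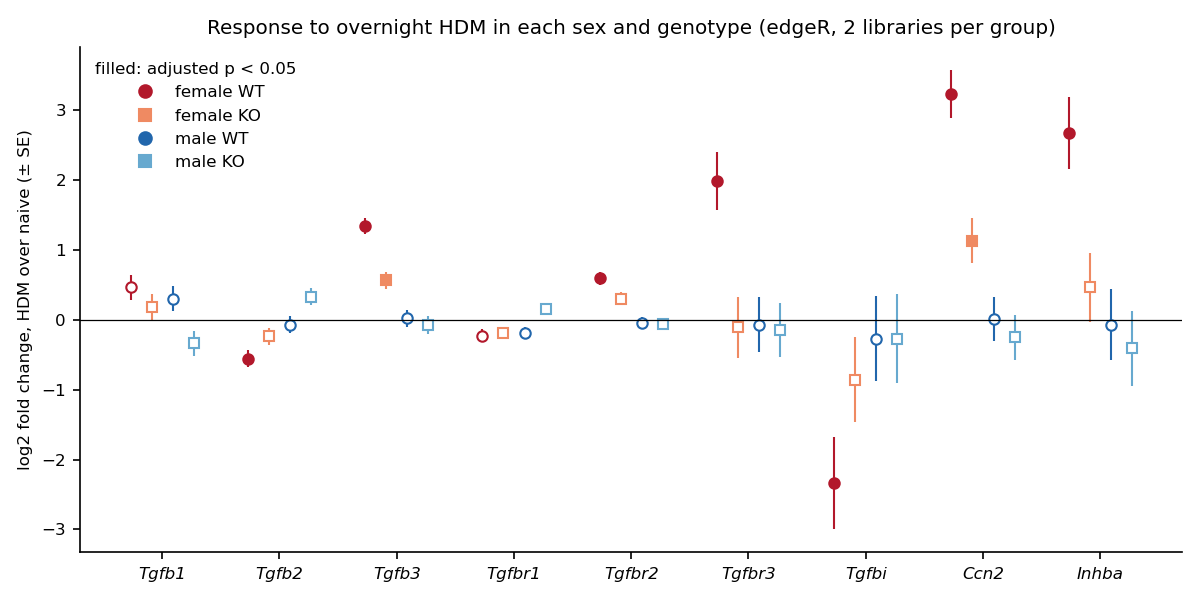
Points give the log2 fold change of HDM over naive for each member in the 4 combinations of sex and genotype, with bars of 1 SE from edgeR and 2 libraries per group. Filled points have an adjusted p under 0.05. Female WT points reach 3.23 for Ccn2 and -2.34 for Tgfbi, while the male points lie between -0.41 and 0.33.

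In female KO MTECs, where Lman1 read 12.8 and 12.8 CPM naive and 66.6 and 78.1 with HDM, 2 members, Tgfb3 and Ccn2, passed the threshold, both higher, against 10.4% of all genes, of which 4.63% were higher and 5.77% lower. DESeq2 called 3 members and 2092 of 29397 genes. The count fell to 0 when any 1 of the 4 libraries of this comparison was left out, and to 1 without either male WT naive library or either male KO HDM library, which enter through the shared estimate of spread. In male WT and male KO MTECs edgeR called 0 members and 0% of all genes, and DESeq2 also called 0 members in each. At an unadjusted p under 0.05 there were 0 members in male WT and 1 in male KO MTECs, the latter Tgfb2, against 4.16% and 5.36% of all genes. Without male KO naive replicate 2, the 1 naive library labelled KO with Lman1 above 20% of the WT mean, 0 members were again called in male KO MTECs.

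The next question was whether the response differed between sexes and genotypes, which a test of the difference of responses addresses. The response of WT females minus that of WT males was called for 5 members, all positive, against 24.2% of all genes, 11.3% positive and 12.8% negative. These were Ccn2 at 3.21 (SE 0.46), Inhba at 2.74 (SE 0.72), Tgfbr3 at 2.05 (SE 0.56), Tgfb3 at 1.32 (SE 0.18) and Tgfbr2 at 0.64 (SE 0.12) on the log2 scale. Without female WT HDM replicate 2 the count was 3. Ccn2, Tgfb3 and Tgfbr2 were called whichever library was left out, while the calls of Tgfbr3 and Inhba were each lost without several single WT libraries. The same difference in KO MTECs had 5 members at an unadjusted p under 0.05, against 18.6% of all genes. It was called for 0 members by edgeR, against 3.56% of all genes, and for 2 members by DESeq2. It was called for 1 member by edgeR without either male WT naive library or male KO naive replicate 2. The largest there was Ccn2 at 1.38 (SE 0.45, edgeR adjusted p = 0.122).

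The response of female KO minus that of female WT MTECs was called for 3 members, all negative, against 11.2% of all genes, 6.16% positive and 5.08% negative. Ccn2 differed by -2.10 (SE 0.45, edgeR adjusted p = 0.0159), Tgfbr3 by -2.09 (SE 0.59, edgeR adjusted p = 0.0446) and Tgfb3 by -0.78 (SE 0.17, edgeR adjusted p = 0.019). Inhba differed by -2.20 (SE 0.70) with an edgeR adjusted p of 0.0657. The call of Tgfbr3 was lost under 12 of 24 alternatives, among them scaling by library size alone and leaving out any 1 of the male WT naive, male KO HDM, female KO naive or female KO HDM libraries. The count fell to 0 without female WT naive replicate 1, female WT HDM replicate 2, female KO naive replicate 2 or female KO HDM replicate 2, each left out alone, and also without both female WT replicate 2 libraries. In males edgeR called 0 members and 0% of all genes, and DESeq2 called 0 members. There 3 members had an unadjusted p under 0.05, against 8.68% of all genes.

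Between the sexes, naive MTECs showed few differences. In naive WT MTECs edgeR called 0 members and 0.1% of all genes, and DESeq2 called 1 member, Tgfbr1. In naive KO MTECs edgeR called 0 members and 0.188% of all genes, and DESeq2 called 0. At an unadjusted p under 0.05 there were 2 and 4 members, against 12.3% and 9.91% of all genes. With HDM, 7 members differed between WT males and females, against 41.6% of all genes, 21.3% higher and 20.3% lower in males. Ccn2 (log2 fold change of male over female -3.06, SE 0.34), Inhba (-3.19, SE 0.53), Tgfb3 (-1.29, SE 0.12), Tgfbr3 (-1.10, SE 0.39) and Tgfbr2 (-0.58, SE 0.09) were lower in males, and Tgfb2 (0.59, SE 0.12) and Tgfbr1 were higher. In KO HDM MTECs, whose 4 libraries held Lman1 at 65 to 78.1 CPM, 8 members differed, against 25.3% of all genes, 12.9% higher and 12.4% lower in males. There Tgfb1 was also lower in males (-0.72, SE 0.18, edgeR adjusted p = 0.0151), and Tgfbr3 was higher in males (1.35, SE 0.42, edgeR adjusted p = 0.0378), the reverse of WT. The KO count fell to 2 or 3 when any 1 of its 4 libraries was left out. In WT the call of Tgfbr3 was lost without male WT HDM replicate 1, female WT HDM replicate 2 or any 1 of the 4 KO HDM libraries.

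Between the genotypes, naive MTECs gave 0 called members by edgeR and by DESeq2 in both sexes. In each sex 0 members had an unadjusted p under 0.05, against 1.27% of all genes in females and 5.42% in males, and edgeR called 0% of all genes. Lman1 itself was thus not called by edgeR, at 12.8 and 12.8 CPM in naive KO and 123 and 123 in naive WT females. The lack of calls therefore does not show that the genotypes were alike. In naive males, 1 of the KO libraries held Lman1 at 63.4 CPM. In female HDM MTECs 6 members differed, against 29.2% of all genes, 14.9% higher and 14.3% lower. Libraries labelled KO were lower in Ccn2 (log2 fold change of KO over WT -2.31, SE 0.33), Tgfbr3 (-2.40, SE 0.43), Inhba (-2.07, SE 0.50), Tgfb3 (-0.90, SE 0.12) and Tgfbr2 (-0.27, SE 0.09) and higher in Tgfb2 (0.41, SE 0.12). These libraries held 66.6 and 78.1 CPM of Lman1. Ccn2, Tgfb3 and Tgfbr3 were called whichever library was left out. The call of Tgfbr2 was lost under 11 of 24 alternatives, among them scaling by library size alone, that of Tgfb2 under 5 and that of Inhba under 4. The count was 3 without either female KO HDM library and 3 without both female WT replicate 2 libraries. In male HDM MTECs edgeR called 0 members and 0% of all genes, while 4 members had an unadjusted p under 0.05, against 18.1% of all genes. DESeq2 called 1 member there, Tgfb1 (log2 fold change by edgeR -0.68, SE 0.18, edgeR adjusted p = 0.164).

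These comparisons share libraries, so their values for a member are set side by side and are not independent of each other. For Ccn2 the group means ran from 939 CPM in female WT HDM through 189 in female KO HDM to 85.2 in male KO HDM MTECs, and the 6 lower groups overlapped their neighbours. For Tgfb3 they ran from 118 through 63.3 to 39.3 CPM in the same groups. For Inhba the first 2 groups were at 115 and 27.3 CPM, apart from each other and from the third, female KO naive at 19.8 CPM.

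The other genes of the pathway were followed as 5 lists chosen by function, apart from the members, with earlier results of these data known. The genes named from each list are those with the smallest p in the HDM response of female WT MTECs. In the latency and activation list 7 of 11 genes tested rose in female WT MTECs and 0 fell (20.6% and 22.4% of all genes), with a median log2 fold change of 1.19 against -0.02 over all genes. Ltbp3, a latent TGF-beta-binding protein, rose from 223 and 216 to 594 and 642 CPM (log2 fold change 1.49, SE 0.08). Itgav, the alpha-v integrin chain, rose from 129 and 138 to 292 and 294 CPM (1.13, SE 0.08), and its partner Itgb6 from 13.3 and 17.4 to 35.8 and 44.5 CPM (1.38, SE 0.28). Thbs1, the activator thrombospondin-1, went from 123 and 293 to 1062 and 1124 CPM (2.39, SE 0.36), and Ltbp1 from 21.6 and 40.6 to 81.4 and 71.5 CPM (1.29, SE 0.30). Without both female WT replicate 2 libraries 6 of 11 were called, all higher, against 22.1% of all genes called. Among female KO MTECs 4 of 11 rose, against 4.63% of all genes, and the median was 0.51.

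In the list of feedback genes and inhibitors 7 of 13 genes tested rose and 2 fell in female WT MTECs, against 20.6% and 22.4% of all genes, with a median of 0.35. Smad7, which turns over the type I receptor, rose from 20.2 and 21.4 to 52.2 and 65.0 CPM (log2 fold change 1.49, SE 0.13). Pmepa1, which binds SMADs away from the receptor, rose from 94.7 and 130 to 336 and 523 CPM (1.93, SE 0.21). Smurf1, a ubiquitin ligase for SMADs and receptors, rose with a log2 fold change of 0.96 (SE 0.10) and Tgif1, a SMAD co-repressor, with 0.80 (SE 0.15). Bambi, a decoy receptor, fell from 4.80 and 4.02 to 1.42 and 1.61 CPM (-1.54, SE 0.22). Without both female WT replicate 2 libraries 6 of 13 were called, 4 higher and 2 lower, against 22.1% of all genes. In female KO MTECs 3 of 13 rose and 0 fell, against 4.63% and 5.77% of all genes. These were Smad7 (0.50, SE 0.13), Smurf1 (0.46, SE 0.10) and Pmepa1 (0.82, SE 0.20).

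Of the activin and inhibin branch 6 of 7 genes tested were called in female WT MTECs, 3 higher and 3 lower, against 43.1% of all genes called, with a median of 0.25. The extracellular activin inhibitors Fst (log2 fold change 2.62, SE 0.47) and Fstl3 (2.20, SE 0.26) rose together with Inhbb (1.15, SE 0.23), another activin chain. Fst went from 9.85 and 19.6 to 96.6 and 86.1 CPM. The type I receptor Acvr1b fell from 96.2 and 92.8 to 49.5 and 41.9 CPM (-1.05, SE 0.09) and the type II receptor Acvr2a by 0.31 on the log2 scale (SE 0.10). Without both female WT replicate 2 libraries 4 of 7 were called, 3 higher and 1 lower, against 22.1% of all genes. The female KO response was called for 1 gene of the 7, Inhbb (0.95, SE 0.23), against 10.4% of all genes.

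Among co-receptors and SMAD transduction 3 of 8 genes rose and 2 fell in female WT MTECs, against 43.1% of all genes called, with a median of -0.03. Smad3 rose from 156 and 146 to 270 and 306 CPM (log2 fold change 0.93, SE 0.10) and the kinase gene Map3k7 with 0.36 (SE 0.08), and its partner Tab1 fell by 0.51 on the log2 scale (SE 0.07). Eng, the co-receptor endoglin, read 1.16 and 2.20 CPM naive and 3.04 and 15.5 with HDM (2.44, SE 0.69), and Acvrl1 fell from 14.1 and 10.3 to 4.54 and 4.55 CPM (-1.42, SE 0.49). Both Eng and Acvrl1 are best known from endothelium. Without both female WT replicate 2 libraries 2 of 8 were called, or 25.0%, near the 22.1% of all genes. In female KO MTECs Smad3 rose (0.50, SE 0.10) and Tab1 fell (-0.41, SE 0.07), which makes 2 of 8 against 10.4% of all genes.

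Of 35 target genes, 17 rose and 3 fell in female WT MTECs, against 20.6% and 22.4% of all genes, with a median log2 fold change of 1.20. Cdh2, N-cadherin, rose from 1.34 and 1.91 to 19.4 and 35.8 CPM (4.06, SE 0.37), and Ccn1, a relative of Ccn2, from 43.6 and 65.8 to 375 and 578 CPM (3.12, SE 0.33). Edn1, endothelin-1, rose from 10.5 and 13.4 to 109 and 135 CPM (3.35, SE 0.39), and Cdkn1a, an inhibitor of the cell cycle, with 1.20 (SE 0.14). Pthlh, parathyroid hormone-like hormone, fell from 120 and 126 to 30.3 and 26.5 CPM (-2.11, SE 0.11). Of the list 3 genes are also fibroblast markers. These were not among the 20 called, so leaving them out (20 of 32 called, 17 higher and 3 lower) could not lower the count. It does not test the part of fibroblasts. Without both female WT replicate 2 libraries 17 of 35 were called, 15 higher and 2 lower, against 22.1% of all genes. In female KO MTECs 3 of 35 rose and 1 fell, against 4.63% and 5.77% of all genes, namely Cdh2 (1.36, SE 0.36), Ccn1 (1.15, SE 0.31), Edn1 (1.59, SE 0.37) and Pthlh (-1.27, SE 0.11), with a median of 0.06 over the list. In male WT and male KO MTECs edgeR called 0 genes of each of the 5 lists. Between the genotypes in female HDM MTECs, 16 of the 35 target genes were lower and 1 was higher in libraries labelled KO, against 14.3% lower and 14.9% higher of all genes. Between the sexes in WT HDM MTECs 19 were lower and 3 higher in males, against 20.3% and 21.3% of all genes.

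**Figure D4:**
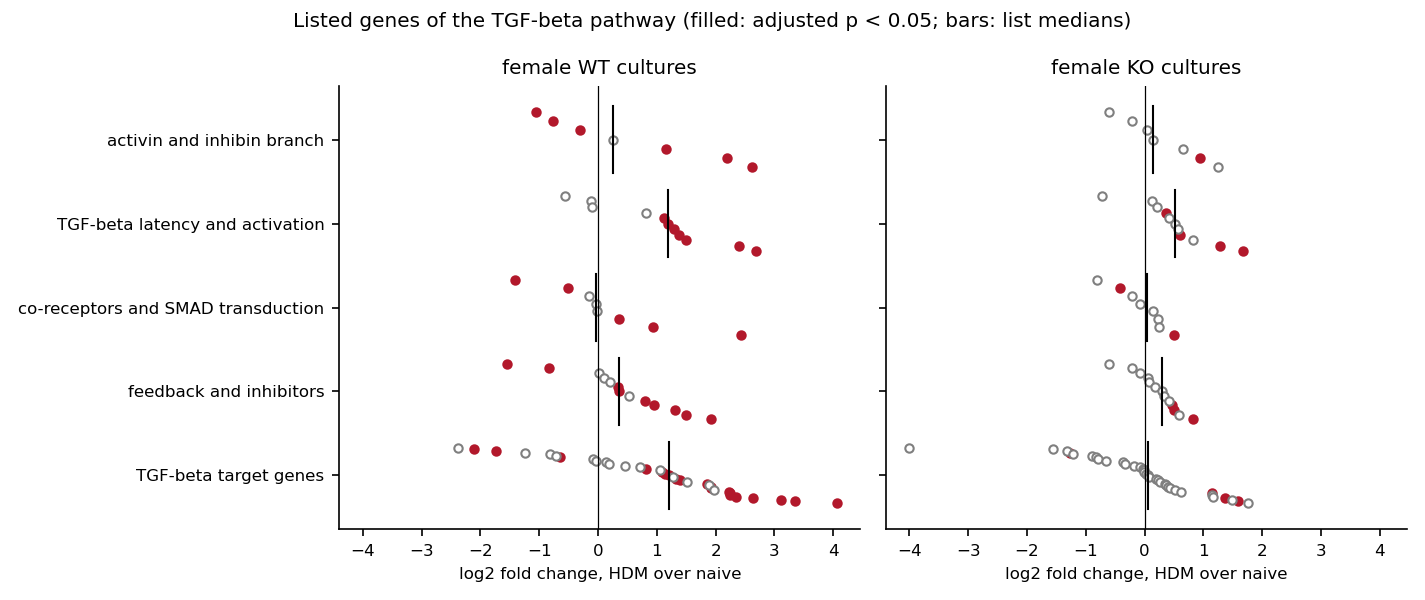
Each point is a gene of 1 of the 5 pathway lists, placed by its log2 fold change of HDM over naive, in female WT (left) and female KO MTECs (right). Filled points have an adjusted p under 0.05 and bars are list medians. In female WT MTECs the medians are 1.19 for latency and activation and 1.20 for target genes, and in female KO MTECs 0.51 and 0.06.

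Cell type markers moved in the same libraries. Over all genes, 20.6% were called higher and 22.4% lower in the HDM response of female WT MTECs. In female KO MTECs these shares were 4.63% and 5.77%, and in male KO MTECs 0% were called. Summed basal markers went from 10470 and 11350 to 4191 and 2172 CPM in female WT MTECs, with 6 of 8 called lower. In female KO MTECs they went from 10810 and 12090 to 13810 and 10970 CPM, with 1 of 8 called, lower. The median log2 fold change over the 8 was -2.61 in female WT and -0.14 in female KO MTECs. Single basal markers differed in direction in female KO means, as with Krt14 at 2009 CPM naive and 3422 with HDM, and Krt15 at 3438 and 2404. Markers of club and other secretory cells fell in female WT MTECs from 23820 and 18010 to 4909 and 3992 CPM (8 of 8 called) and in female KO MTECs from 21650 and 17640 to 9799 and 8830 CPM (5 of 8 called). Of 9 ciliated markers 7 were called lower in female WT MTECs, with a median log2 fold change of -1.96. Their sum went from 109 and 146 to 90.7 and 97.5 CPM. Most of it was Foxj1, with means of 79.4 CPM naive and 82.9 with HDM. In female KO MTECs the median was -1.51, and the mean of Foxj1 went from 83.5 to 45.9 CPM. The ciliated sum went from 128 and 144 to 58.6 and 66.9 CPM in female KO MTECs, with 2 of 9 called lower, and from 166.5 and 77.0 to 72.4 and 72.6 CPM in male KO MTECs, with 0 called. Of 7 squamous markers tested, 1 was called higher and 3 lower in female WT MTECs, with sums of 719.5 and 1012 CPM naive and 585 and 450 with HDM. In female KO MTECs these sums were 929 and 1134 CPM naive and 1591 and 1230 with HDM, with 1 of 7 called, lower. The summed epithelial markers rose from 3566 and 3991 to 7372 and 7574 CPM in female WT MTECs, with 4 of 5 called higher and 1 lower. In female KO MTECs they rose from 3390 and 3854 to 5767 and 5335 CPM, with 2 of 5 called higher. Summed immune markers went from 88.0 and 63.8 to 46.7 and 45.5 CPM in female WT MTECs, with 2 of 4 tested called lower. In female KO MTECs they went from 91.4 and 95.7 to 67.4 and 61.4 CPM, with 1 of 4 called, lower. In female WT MTECs, where 20.6% of all genes were called higher, 2 of 8 fibroblast markers were, which is close to that share. Their sum went from 27.4 to 49.4 CPM in replicate 1 and from 547 to 598 CPM in replicate 2. Single markers differed in direction. In the means of the 2 female WT libraries Dcn read 2.28 CPM naive and 24.1 with HDM, Lum 0.566 and 14.5, and Pdgfra 1.61 and 7.71, while Col1a1 read 129 and 25.1. The part of these marker lists in the results was not tested. Without the female WT replicate 2 libraries, log2 fold changes were 1.43 for Tgfb3, 0.70 for Tgfbr2 and 2.09 for Tgfbr3. They were 3.24 for Ccn2 and 3.06 for Inhba. Those values cannot test the part of the markers, as the basal and secretory sums fell and the fibroblast sum rose in replicate 1 too.

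**Figure D5:**
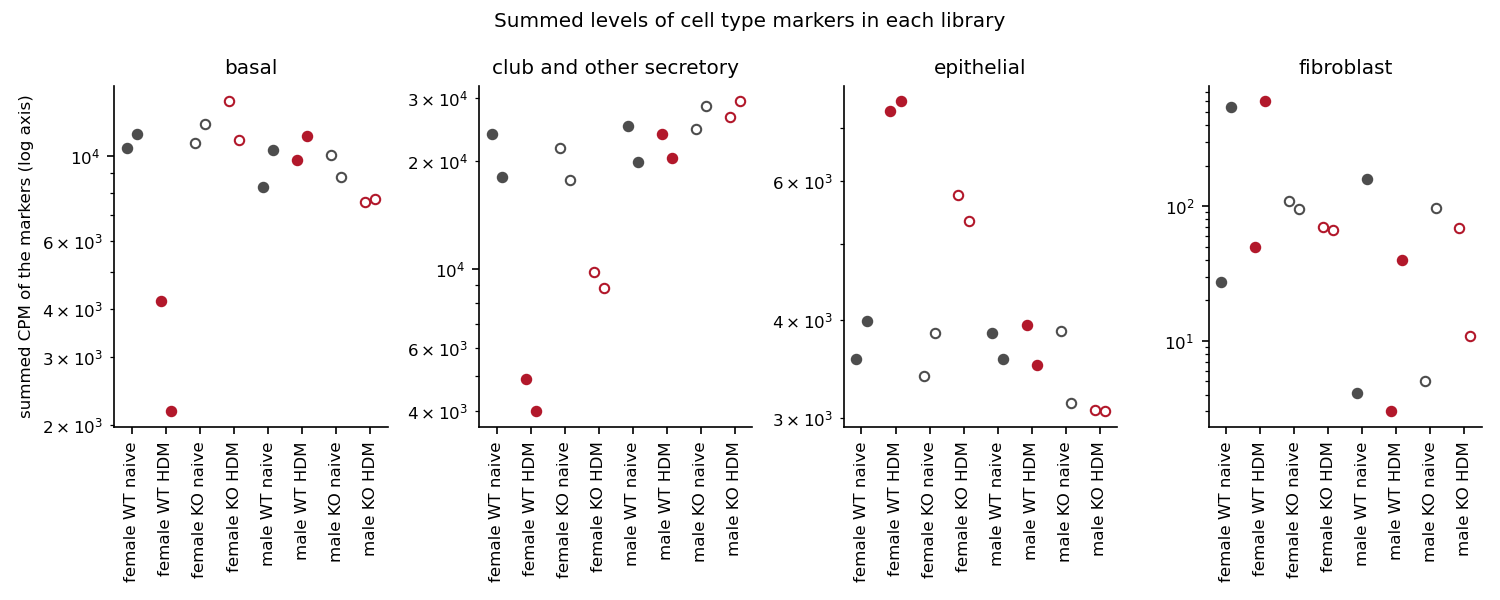
Panels give the summed CPM of 4 marker lists on log axes, with 1 point per library and the 8 groups in columns (dark for naive, red for HDM, filled for WT, open for KO). Basal and secretory sums are lowest in the 2 female WT HDM libraries, and fibroblast sums are highest, at 547 and 598 CPM, in replicate 2 of both female WT groups.

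The genes whose pattern over the 16 libraries was most like that of a member were taken by Pearson's r of log2(CPM + 1) among 9640 genes with a mean of at least 10 CPM. These values describe libraries that share treatment and depth. The genes were picked over these same libraries, so a peak or low point shared with a member largely follows from the choice. For Ccn2 they were Ccn1 (r = 0.990), Rras2 (0.988) and Cnn2 (0.988). For Inhba they were Sparc (0.978), Fn1 (0.973) and Procr (0.972), and for Tgfb3 they were Rcn1 (0.987), Bnip2 (0.980) and Serpinb9 (0.980). Each of these 9 genes was higher in the mean of the female WT HDM libraries than in any other library, as with Fn1 at 4934 CPM against at most 1087. Tgfbr2 went with Sema3e (0.977), Ano6 (0.968) and Cdc42ep1 (0.968), and Tgfb1 with Fosl1 (0.966), Ces2e (0.956) and Cks1b (0.949). Tgfb2 went with Ppp4r3b (0.964), Apobec3 (0.962) and Rabgef1 (0.960), all lower in the mean of the female WT HDM libraries than in any other library. Tgfbr1 went with Kansl1l (0.968), Naaladl2 (0.966) and 1190002N15Rik (0.958), Tgfbr3 with Znrf2 (0.920), Selenot (0.918) and BC029722 (0.907), and Tgfbi, the member with the weakest matches, with Eif2b1 (0.831), Cryz (0.820) and Nme7 (0.811).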

How the data were processed

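Raw counts of reads on each Ensembl gene were deposited by the authors as 1 table holding all 16 libraries. The submitters' processing notes name Trimmomatic 0.36, STAR 2.5.2b, featureCounts, Subread 1.5.2, DESeq2 and GRCm38. The annotation release and the strand setting are not given in the sources used here. Symbols, positions and exon lengths came from GENCODE M21 (GRCm38), which matched 49056 of 49315 identifiers. The unmatched ones carried 0.0106% of counts. Counts were filtered with filterByExpr, scaled by TMM and fitted with edgeR 4.0.16 in R 4.3.3 as 8 group means over 15993 genes with 8 residual degrees of freedom. Comparisons were called at an adjusted p under 0.05, two-sided. The steps were tested on simulated data. Alternatives were a replicate block, DESeq2 1.42.0, scaling by upper quartiles or by library size alone, omitting the filter or requiring 10 counts throughout, fitting the compared libraries alone, a 2-fold minimum (log2 of 1) and leaving out each library. Members, pathway lists and marker lists were chosen with earlier results of these data known. Text names all members, up to 5 genes per pathway list with the smallest p in female WT MTECs, and the 3 genes most like each member. Counting intervals were not needed, as replicates gave the error. Tables and figures used Python 3.11.15, pandas 2.3.3 and matplotlib 3.10.9.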

Additional observations from a re-analysis of the deposited data

Results flagged for a closer look

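The response to HDM differed between WT females and WT males, female minus male, for Ccn2 (3.21 on the log2 scale, edgeR adjusted p = 6.00e-04), Inhba (2.74, 0.0173), Tgfbr3 (2.05, 0.0219), Tgfb3 (1.32, 3.70e-04) and Tgfbr2 (0.64, 0.0037), each by the test of the difference itself. In every case both female WT HDM libraries lay above both female WT naive libraries, while the male WT libraries of the 2 treatments overlapped. The response to HDM differed between female KO and female WT MTECs, KO minus WT, for Ccn2 (-2.10, edgeR adjusted p = 0.0159), Tgfbr3 (-2.09, 0.0446) and Tgfb3 (-0.78, 0.019). The call of Tgfbr3 between the genotypes was lost under 12 of 24 alternatives, and those of Ccn2 and Tgfb3 under 5 each. The female KO HDM libraries in these differences held Lman1 transcript at over 20% of the WT mean.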

How the results depend on the processing

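The number of members called in the HDM response of female WT MTECs stayed within 1.5 times under each alternative run, and it stayed at 0 in both male HDM responses and between the genotypes in naive females. The rises of Tgfb3, Tgfbr2, Tgfbr3, Ccn2 and Inhba there passed the threshold in each of 25 alternatives, apart from a minimum log2 fold change of 1, which Tgfbr2 misses. Without a filter on low counts 29397 genes were tested, and the numbers of all genes called moved too. There edgeR called 4 members in the HDM response of female KO MTECs (2717 of all genes). It called 3 between the sexes in naive WT (644 genes) and 3 in naive KO MTECs (859 genes). Between the genotypes it called 2 in naive and 4 in HDM males (98 and 1896 genes). In the differences of responses it called 5 between KO sexes (1977 genes), 5 between female genotypes (3029) and 1 between male genotypes (668). Asking for a log2 fold change beyond 1 in size, the counts were 1 in the HDM response of female KO MTECs, 4 and 3 between the sexes in WT and KO HDM MTECs, and 3 between the genotypes in female HDM MTECs. That minimum was applied to the members only, so no share of all genes goes with these counts. Upper-quartile scaling gave 1 in the HDM response of female KO MTECs (1708 of 15993 genes). With only the compared libraries the differences of responses between the sexes were called for 3 members in WT and 3 in KO MTECs. The calls over all genes were 2602 of 15654 in WT and 793 of 15427 in KO MTECs. DESeq2 called 1 member between the sexes in naive WT MTECs (199 of 29397 genes) and 1 between the genotypes in HDM males (481 genes). It called 2 in the difference of responses between KO sexes (1169 genes). Dropping both female WT replicate 2 libraries, added after the data were seen, gave 3 between the genotypes in female HDM MTECs and 0 in the difference of responses between female genotypes. The cause of these shifts was not tested.

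The labels number the replicates alike in each group, but do not say that equal numbers share animals, and each comparison has 2 pairs. Correlations of the replicate differences across genes were 0.286 and -0.0511 for the HDM response of female WT and KO MTECs and 0.437 and -0.144 for male WT and KO MTECs. With the replicate block, edgeR called 4 members in the HDM response of female KO MTECs (2150 of 15993 genes). It called 3 in the difference of responses between KO sexes (1062 genes) and 5 in that between female genotypes (2441 genes). Other member counts stayed within 1.5 times.

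When single libraries were left out, the counts ran from 6 to 8 in the HDM response of female WT and 0 to 3 of female KO MTECs. They ran from 6 to 7 and from 2 to 8 between the sexes in WT and KO HDM MTECs, and from 3 to 6 between the genotypes in female HDM MTECs. For the differences of responses they ran from 3 to 6 between WT sexes, 0 to 1 between KO sexes and 0 to 4 between female genotypes. A lone library of a group was assumed to vary like the others. In the comparisons with HDM, other than between male genotypes, no member called with or without an alternative changed direction. With 2 cultures per group, changes of low-count members such as Tgfbr3 have wide errors.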
